A study of Mus musculus with 18 samples.

Results

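The granins and the enzymes that process prohormones were examined as 10 genes, taken by name: Chga, Chgb, Scg2, Scg3, Scg5, Pcsk1, Pcsk2, Pcsk1n, Cpe and Ptprn. All 10 were found among the 23228 genes of the deposited expression table. The neural tube sample was made of cells with GFP, taken by flow sorting at E12.5 from mouse embryos of the ICR strain, labelled WT for genotype. These embryos carried the 2.3Ptf1a::GFP transgene, whose GFP is driven through a beta-globin basal promoter by the 2.3 kb enhancer with which Ptf1a regulates itself, so the sort took cells in which that enhancer had been active. They were set against whole, unsorted E15.5 pancreas of WT embryos of the same strain. Ptf1a is a transcription factor needed both for pancreatic acinar cells and for inhibitory neurons of the dorsal neural tube, and the series was built to compare the gene programs of these tissues. Each tissue had 1 value per gene in FPKM (fragments scaled to transcript length and to library size), which the authors made from 2 named libraries, so no SD, interval or test over replicates can be given. In such bulk values fewer cells of a type and less RNA per cell cannot be told apart. Tissue, stage, sorting and RNA extraction all differed between the same 2 samples and cannot be told apart either.

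Peptide hormones and neuropeptides are made as precursors that enter the secretory pathway and are packed into dense-core vesicles, the storage granules of endocrine cells and neurons. Granins are acidic proteins that condense in the trans-Golgi and make up much of the granule core. Prohormone convertases, which are subtilisin-like proteases, cut the precursors after pairs of basic residues inside the maturing granule, and carboxypeptidase E then trims the exposed basic residues. Small granule proteins hold the convertases in check or bring them to activity, and receptor-like tyrosine phosphatases without enzymatic activity, such as Ptprn, span the granule membrane.

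The sets of granule genes in the samples were different in composition and close in total. The summed level of the 10 genes was 304.5 FPKM in neural tube and 303.0 FPKM in pancreas, and without Cpe it was 190.5 and 178.5 FPKM. As a share of all FPKM in the table the 10 genes made up 0.0668% in neural tube and 0.0430% in pancreas, since the totals of the columns differ. The rule for calling a difference was one of size: log2(FPKM + 1) had to differ by 2 or more, which is 4 times, and the larger value had to reach 5 FPKM. By this rule 1 gene, Pcsk1n, was higher in neural tube, while 3 genes, Scg2, Pcsk1 and Pcsk2, were higher in pancreas, and 6 differed by less. Of all 10744 genes that reached 5 FPKM in a sample, 22.2% were called, 10.3% toward neural tube and 11.9% toward pancreas, and all 10 members reached that level in at least 1 sample. The members' median difference, neural tube minus pancreas, was -0.69 on the log2 scale, beside -0.072 over the 14303 genes that reached 1 FPKM in a sample. Calls over all genes were 46.4% toward neural tube as deposited, and 66.8% after rescaling to equal totals, 61.3% with the housekeeping median set to 1 and 58.8% with equal totals after leaving out the 50 highest genes of each sample. Those rescalings moved the median difference of genes with at least 1 FPKM in each sample to 0.53, 0.38 and 0.32 in that order of naming, against 0.024 as deposited, so the differences below are relative to that scale. The 26 housekeeping genes found had a median difference of -0.44, with 0 called toward neural tube and 5 toward pancreas.

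**Figure D1:**
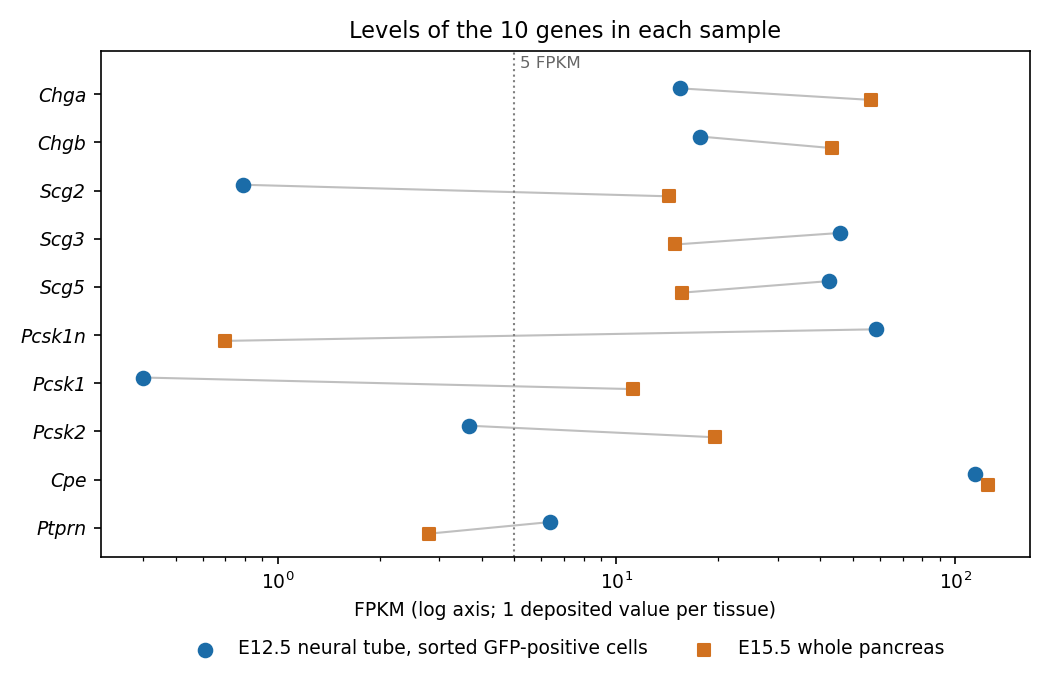
Level of each of the 10 genes in FPKM on a log axis, with neural tube as circles and pancreas as squares, 1 deposited value each. Cpe lies above 100 FPKM in both samples, Pcsk1n lies far to the right in neural tube, and Scg2 and Pcsk1 lie below 1 FPKM in neural tube and above 10 FPKM in pancreas.

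The stretches before the transcription starts of 5 members are shown because 4 of them share an element and the other member, Pcsk1n, has the largest difference between the samples. The element is the cyclic AMP response element (CRE), the site bound by CREB and ATF proteins and long known from granin promoters. Starts and letters are those of RefSeq (GRCm38.p6), and each full window was found once, letter for letter, on NCBIM37, the mm9 build that the submitters' processing notes name, from which the coordinates come. Each line gives the 150 bases upstream of the start, 5′ to 3′ on the strand of the gene, and the capitals mark every match to TGACGTNA on either strand.
Scg2 chr1:79436602-79436751, minus strand: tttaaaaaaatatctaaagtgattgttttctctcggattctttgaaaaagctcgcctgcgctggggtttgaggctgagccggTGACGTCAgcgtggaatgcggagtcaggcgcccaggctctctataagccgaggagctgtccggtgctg
Chgb chr2:132607228-132607377, plus strand: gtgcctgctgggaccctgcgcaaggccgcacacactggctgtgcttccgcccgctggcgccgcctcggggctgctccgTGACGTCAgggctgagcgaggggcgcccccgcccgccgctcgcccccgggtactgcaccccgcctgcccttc
Pcsk1 chr13:75227155-75227304, plus strand: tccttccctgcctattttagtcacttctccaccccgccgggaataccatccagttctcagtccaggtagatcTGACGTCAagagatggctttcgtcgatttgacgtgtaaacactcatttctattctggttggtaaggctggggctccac
Chga chr12:103793001-103793150, plus strand: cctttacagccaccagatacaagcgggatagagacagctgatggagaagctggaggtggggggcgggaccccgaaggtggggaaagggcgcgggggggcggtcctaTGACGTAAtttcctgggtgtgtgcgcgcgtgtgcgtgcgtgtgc
Pcsk1n chrX:7496798-7496947, plus strand: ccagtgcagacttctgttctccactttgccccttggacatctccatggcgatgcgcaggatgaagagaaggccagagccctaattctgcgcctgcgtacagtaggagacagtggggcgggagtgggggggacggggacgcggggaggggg
Scg2, Chgb and Pcsk1 held the full palindrome TGACGTCA, beginning 68, 72 and 78 bases upstream of their RefSeq starts, and Chga held TGACGTAA beginning 44 bases upstream. These starts differ in part from the gene positions given below, which are from GENCODE M1. By those positions the Chgb window lies inside the gene, and the windows of Scg2 and Pcsk1 overlap their genes.

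Promoters were listed in RefSeq for 9 of the members, with 2 starts for Ptprn, and Cpe had no entry. In the window from 250 bases before to 50 bases after the start, TGACGTNA was present in 4 of these 9 genes and in 2.93% of all 32851 promoters, or 3.45% of the 21262 promoters of protein-coding genes. The shorter TGACG, which lies inside the longer element, was present in 8 of 9 members and in 20.8% of all promoters, and Pcsk1n was the member without it. All 4 genes with the longer element had lower levels in neural tube than in pancreas under every rescaling, and 6 of all 10 members were lower as deposited. How often other genes with this element were lower in neural tube was not examined, so no link of element to direction can be drawn. TGACG without the longer element was present in Pcsk2, also lower in neural tube, 34 bases upstream, and in Scg3, Scg5 and Ptprn, which were higher in neural tube, with the Scg3 match 30 bases upstream. Elements of the PTF1 complex, to which Ptf1a belongs, were also searched for on both strands. The E-box CAGCTG was present in 3 of 9 members (Chga, Chgb and Pcsk2) and in 16.3% of all promoters, and the TC-box TTCCCA in 2 of 9 (Scg5 and Ptprn) and in 25.6%. The general E-box CANNTG, which includes CAGCTG, was present in 7 of 9 members and in 72.3% of all promoters. Such matches are letters in a window and do not show binding.

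**Figure D2:**
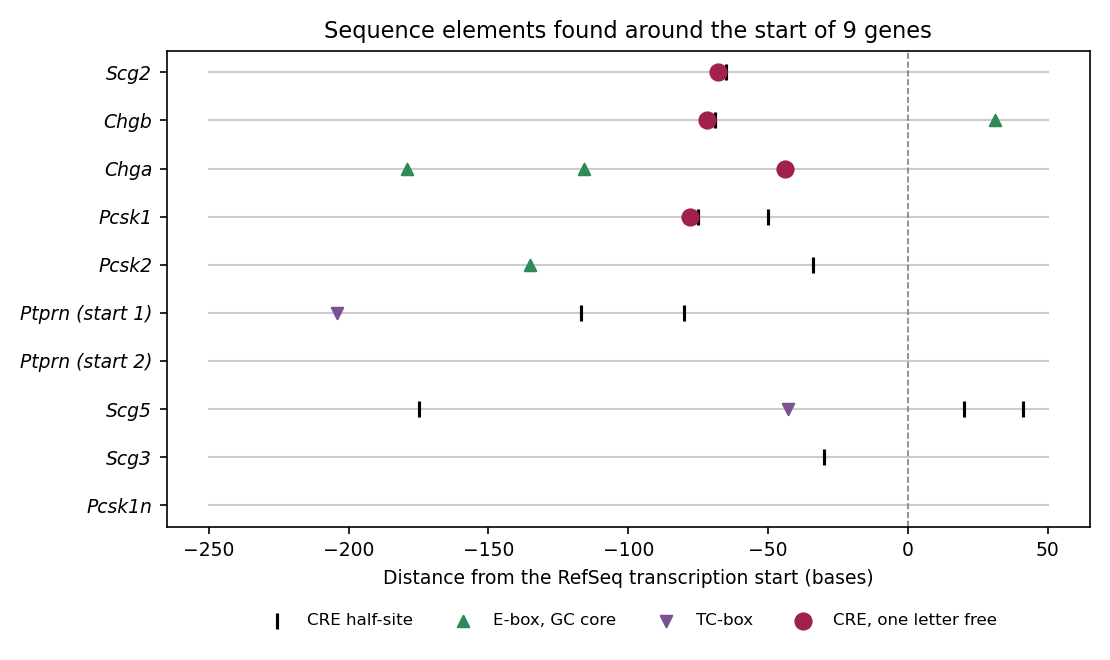
Position of sequence elements from 250 bases before to 50 bases after the RefSeq transcription start (dashed line) of 9 genes, with 2 starts for Ptprn. The 8-letter CRE form (large dots) lies between 44 and 78 bases upstream in Scg2, Chgb, Chga and Pcsk1 and is absent from the windows of the other genes.

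The granins divided by gene: Chga, Chgb and Scg2 had lower levels in neural tube, and Scg3 had a higher one. Chga (chr12:103793179-103803237, plus strand, mm9) encodes chromogranin A, a granule core protein used as a general marker of neuroendocrine cells. It was at 15.4 FPKM in neural tube and 56.3 FPKM in pancreas, a difference of -1.81. Chgb (chr2:132607014-132620815, plus strand), which encodes chromogranin B, was at 17.7 FPKM in neural tube and 43.3 FPKM in pancreas, a difference of -1.25. Both chromogranins were therefore clearly detected in the sorted neural cells, and both fell short of the 4-times rule. Their ratio to each other differed 1.49 times, with 1.15 FPKM of Chgb per FPKM of Chga in neural tube and 0.769 in pancreas.

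Scg2 was the granin with the largest difference. It encodes secretogranin II, the precursor of the peptide secretoneurin, and lies at chr1:79431244-79436665 on the minus strand. Its level was 0.788 FPKM in neural tube and 14.3 FPKM in pancreas, 18.1 times higher in pancreas, with a difference of -3.09. Per unit of Chga, Scg2 was 0.0513 in neural tube and 0.253 in pancreas, so it was lower relative to chromogranin A too. The neural tube value corresponds to roughly 48.1 fragments at the depth estimated from low values.

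Scg3 was on the other side. It encodes secretogranin III, which binds chromogranin A and cholesterol-rich membrane and so anchors the granule core, and lies at chr9:75491071-75531803 on the minus strand. It was at 45.8 FPKM in neural tube and 14.9 FPKM in pancreas, 3.08 times higher in neural tube, with a difference of 1.56. That is below the rule as deposited and past it, at 2.16, after rescaling to equal totals. Scg3 stood at place 3 among the members in neural tube and at place 6 in pancreas, and its level per unit of Chga was 2.98 in neural tube and 0.264 in pancreas.

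The partners of the convertases had higher levels in neural tube, and 1 of these 2 genes passed the rule. Pcsk1n (chrX:7496948-7501536, plus strand) encodes proSAAS, a granin-like protein that binds and inhibits the convertase made from Pcsk1. Its level was 58.2 FPKM in neural tube and 0.701 FPKM in pancreas, 82.9 times higher in neural tube, and the difference of 5.12 kept its direction and its call under all 11 alternatives, from 3.47 to 6.18. It was second among the members in neural tube, above 94.7% of all genes, and last in pancreas, above 41.4%. The gene overlaps Eras on the opposite strand, which was listed at 0 in neural tube and was at 0.0221 FPKM in pancreas. Scg5 (chr2:113616519-113669278, minus strand), whose product is the chaperone needed for the convertase made from Pcsk2 to become active, was at 42.3 FPKM in neural tube and 15.6 FPKM in pancreas. It was 2.72 times higher in neural tube, with a difference of 1.39 that fell short of the rule and reached 1.99 at most over the rescalings.

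The convertases themselves were lower in neural tube. Pcsk1 (chr13:75227274-75269946, plus strand), which encodes the convertase that makes the first cuts in proinsulin and proopiomelanocortin, was at 0.401 FPKM in neural tube and 11.2 FPKM in pancreas. This was 27.8 times higher in pancreas, with a difference of -3.12, and the neural tube value corresponds to roughly 26.3 fragments. Pcsk2 (chr2:143371892-143642021, plus strand), which encodes the convertase that releases glucagon and further cuts many neuropeptide precursors, was at 3.67 FPKM in neural tube and 19.6 FPKM in pancreas. Its difference of -2.14 lies just past the rule. With the housekeeping median set to 1, with equal totals, and with equal totals without the 50 highest genes of each sample, it was -1.74, -1.59 and -1.82, so its call ended. A long noncoding gene of the opposite strand within Pcsk2, C630020P19Rik, was at 0.112 FPKM in neural tube and 0.201 FPKM in pancreas. Whether the authors' counting used strand is not given in the sources used here.

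Within a sample the balance of convertase to partner does not depend on how the samples are scaled to each other. Pcsk1n stood at 145 FPKM per FPKM of Pcsk1 in neural tube and at 0.0629 in pancreas. In neural tube the inhibitor transcript thus far exceeded that of its convertase, and in pancreas the convertase transcript exceeded that of its inhibitor, 15.9 to 1. Scg5 stood at 11.5 FPKM per FPKM of Pcsk2 in neural tube and at 0.796 in pancreas. Between the convertases, Pcsk2 was the higher in both samples, at 9.16 times Pcsk1 in neural tube and 1.75 times in pancreas. All these are ratios of transcript levels per kilobase and say nothing of protein.

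Cpe was the highest member in both samples and nearly equal between them. It encodes carboxypeptidase E, which removes basic residues left by the convertases and also takes part in sorting cargo to granules, and lies at chr8:67071355-67171837 on the minus strand. Its level was 114.0 FPKM in neural tube and 124.5 FPKM in pancreas, a difference of -0.13 that turned positive under 3 of the 5 rescalings and lay between -0.23 and 0.50 over all of them. Of the 5 members with at least 5 FPKM in each sample, 1, Cpe, lay within 2 times, as did 65.9% of all 7037 such genes. Cpe per unit of Pcsk2 was 31.1 in neural tube and 6.37 in pancreas.

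Ptprn, at place 7 among the members in neural tube and place 9 in pancreas, encodes a granule membrane protein, also known as the islet autoantigen IA-2, and lies at chr1:75243616-75260783 on the minus strand. It was at 6.35 FPKM in neural tube and 2.79 FPKM in pancreas, 2.27 times higher in neural tube, with a difference of 0.95. Its paralog Ptprn2, which is not a member, leaned the other way at 10.2 FPKM in neural tube and 17.1 FPKM in pancreas, a difference of -0.70. Ptprn2 per unit of Ptprn was 1.60 in neural tube and 6.14 in pancreas. Neither paralog passed the rule.

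**Figure D3:**
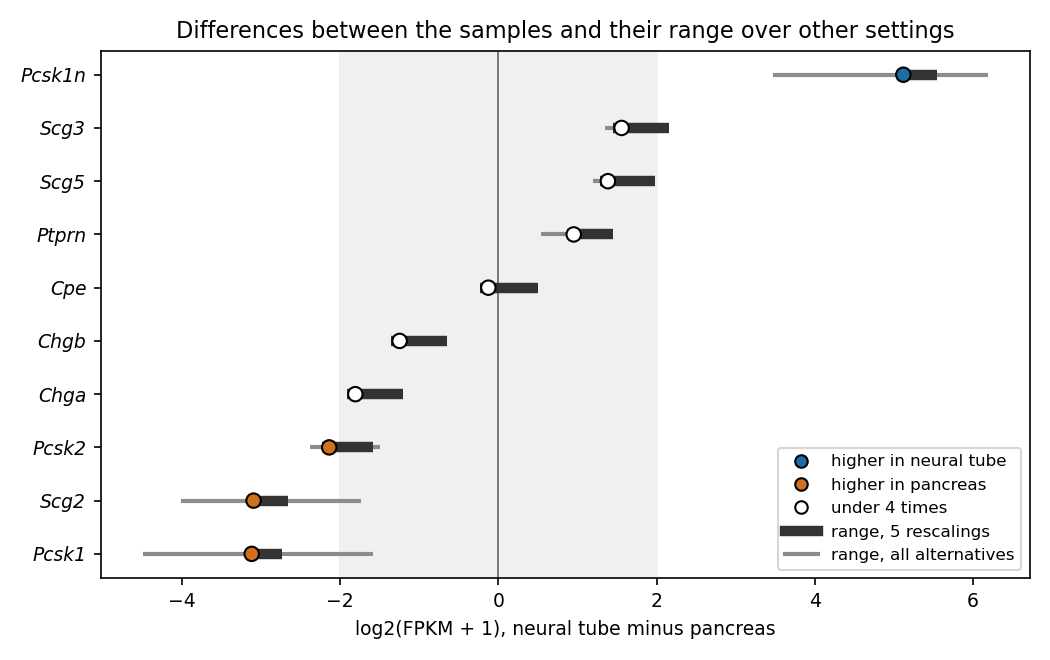
Difference of log2(FPKM + 1), neural tube minus pancreas, for each gene (points), with the range over 5 rescalings (thick bars) and over all 11 alternatives (thin bars). The shaded band marks differences of under 4 times. Pcsk1n stays beyond the band on the neural tube side, Scg2 and Pcsk1 reach into it from the pancreas side with a pseudocount of 5 FPKM, and only the bar of Cpe crosses 0.

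In order of level, neural tube ran Cpe, Pcsk1n, Scg3, Scg5, Chgb, Chga, Ptprn, Pcsk2, Scg2 and Pcsk1, and pancreas ran Cpe, Chga, Chgb, Pcsk2, Scg5, Scg3, Scg2, Pcsk1, Ptprn and Pcsk1n. With 1 value each, neighbours such as Scg3 and Scg5 in neural tube (45.8 and 42.3 FPKM) or Scg5, Scg3 and Scg2 in pancreas (15.6, 14.9 and 14.3 FPKM) cannot be ranked beyond error. Cpe supplied 37.4% of the members' summed FPKM in neural tube and 41.1% in pancreas. Pcsk1n and Scg5 together were at 100.4 FPKM in neural tube and 16.3 FPKM in pancreas, and the 4 granins proper at 79.6 and 128.8 FPKM.

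**Figure D4:**
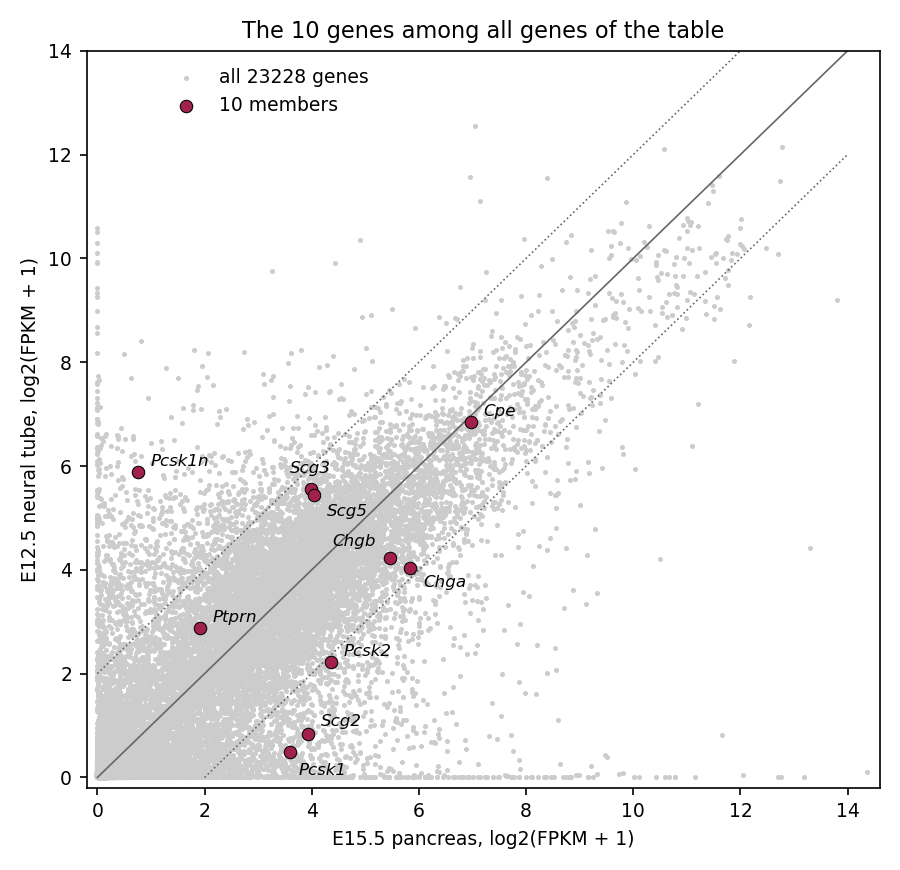
All 23228 genes with pancreas on the x axis and neural tube on the y axis, both as log2(FPKM + 1), and the 10 members as large dots. The solid line marks equal values and the dotted lines 4 times. Cpe lies near the equal line, Pcsk1n beyond the upper dotted line, and Scg2, Pcsk1 and Pcsk2 beyond the lower one.

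Of 10 further convertases and endoproteases, 0 were called toward neural tube and 1 toward pancreas, with a median difference of -0.49. Equal totals take out a shift of -0.63 between the samples, so list medians nearer to 0 than that, such as this one, can change sign. The call was Ctsl, a cathepsin of lysosomes and secretory vesicles, at 22.8 FPKM in neural tube and 142 FPKM in pancreas. Furin, the convertase of the trans-Golgi in most cells, was at 7.67 FPKM in neural tube and 10.1 FPKM in pancreas, and Mbtps1, the site-1 protease, at 36.4 and 40.1 FPKM. Of 14 carboxypeptidases and modifying enzymes, 0 were called toward neural tube and 3 toward pancreas, with a median of -1.39 over the 13 at 1 FPKM or more. Those 3 were Cpn1, the catalytic subunit of plasma carboxypeptidase N, at 0.524 FPKM in neural tube and 64.7 FPKM in pancreas, the exopeptidase Dpp4 at 0.0224 and 7.99 FPKM, and the extracellular protein Aebp1 at 0.959 and 13.1 FPKM. None of the 3 is known chiefly as a granule enzyme. Pam, which amidates peptides in granules, was at 13.3 FPKM in neural tube and 29.5 FPKM in pancreas, short of the rule, and Qpctl, which forms pyroglutamate in the Golgi, was at 8.02 and 8.44 FPKM.

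Other proteins of the granule lumen and membrane were called in both directions, 5 of 26 toward neural tube and 6 toward pancreas, with a median of -0.70 over 23 genes at 1 FPKM or more. Toward neural tube were the vesicle protein Sv2c, at 15.4 FPKM in neural tube and 0.363 FPKM in pancreas, the complexin Cplx1 at 7.17 and 0.163 FPKM, and Rab3a, a GTPase of synaptic and secretory vesicles, at 54.9 and 7.09 FPKM. Syt4 and Sv2a were the other two. Toward pancreas were Rab3d, a GTPase of zymogen granules as well as endocrine ones, at 2.19 FPKM in neural tube and 48.1 FPKM in pancreas, and the islet autoantigen Ica1 at 3.56 and 34.6 FPKM. Rab27a and its effector Sytl4, which dock insulin granules, were at 0.465 and 0.343 FPKM in neural tube and at 9.73 and 8.06 FPKM in pancreas. The granule zinc transporter Slc30a8 and the cytochrome Cyb561 were also higher in pancreas. Vgf, a granin relative of neurons, was under 1 FPKM in both samples, at 0.533 FPKM in neural tube and 0.316 FPKM in pancreas, and Resp18, a lumen protein, was at 5.63 and 10.7 FPKM.

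The genes for forming, moving and releasing dense-core vesicles leaned the other way, with 6 of 23 called toward neural tube, 3 called toward pancreas and a median of 0.76. Kif1a, the kinesin that carries these vesicles along axons, was at 34.1 FPKM in neural tube and 2.08 FPKM in pancreas. Unc13a and Cadps, which prime vesicles for release, were at 14.8 and 16.3 FPKM in neural tube and at 0.480 and 2.36 FPKM in pancreas. Ap3b2 and Snap25 were also called in that direction. Baiap3, a relative of Unc13a that primes dense-core vesicles, was at 0.551 FPKM in neural tube and 8.54 FPKM in pancreas. Arfip1, which binds Arf GTPases at the Golgi, was at 4.75 and 24.0 FPKM, and the remaining gene called toward pancreas, listed by a clone name, was at 8.72 and 39.3 FPKM.

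The cargo was far larger in pancreas. Over 34 hormone and neuropeptide precursors the summed level was 462.5 FPKM in neural tube and 3000.2 FPKM in pancreas, so that the members stood at 65.8 FPKM per 100 FPKM of precursor in neural tube and 10.1 in pancreas. Npy and Sst, the precursors of neuropeptide Y and somatostatin, made up 91.3% of the neural tube sum and 2.03% of the pancreas sum, and Ins2 and Gcg, of insulin and glucagon, made up 0.0766% and 69.4%. Npy was at 277.9 FPKM in neural tube and 20.0 FPKM in pancreas and was called, with Nppc and Pnoc, toward neural tube. Toward pancreas there were 9 calls, among them Pyy, of peptide YY, listed at 0 in neural tube and at 165.5 FPKM in pancreas, Iapp, of islet amyloid polypeptide, listed at 0 and at 330.6 FPKM, and Ghrl, of ghrelin, at 0.922 and 81.5 FPKM.

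**Figure D5:**
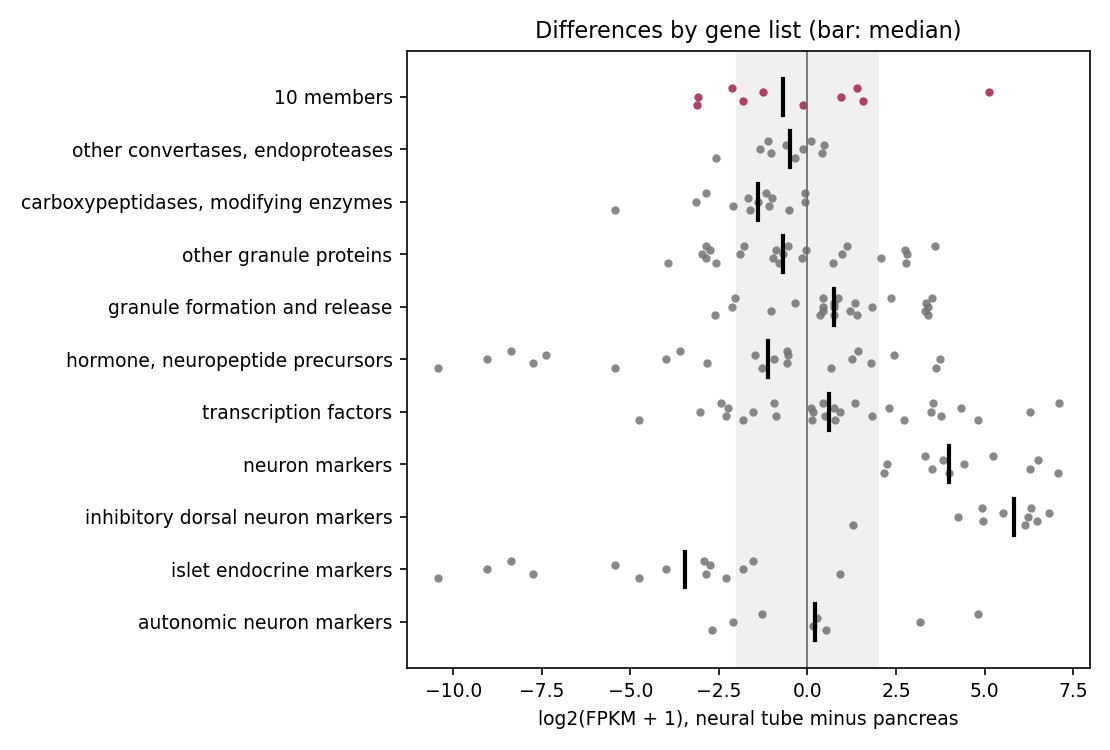
Difference of log2(FPKM + 1), neural tube minus pancreas, for the 10 members and for the genes of 6 gene lists and 4 marker lists that reached 1 FPKM in a sample, with a bar at the median of each. The members span both sides of 0, hormone precursors reach as far as -10.42 with Ins2, and neuron markers lie wholly on the neural tube side.

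Markers of the cells that hold granules moved with the samples. All 11 neuron markers found were higher in neural tube, led by Tubb3, a tubulin of neurons, at 868.7 FPKM in neural tube and 8.51 FPKM in pancreas, and summing to 1752 FPKM there and to 53.2 FPKM in pancreas, where none was listed at 0. Of 14 islet endocrine markers 10 were higher in pancreas, where they summed to 2796 FPKM, beside 14.8 FPKM in neural tube, where Ins1, Ins2, Iapp and Ppy were listed at 0. Among 10 inhibitory dorsal neuron markers 9 passed toward neural tube, with sums of 633 FPKM in neural tube and 20.0 FPKM in pancreas, where Lbx1 was listed at 0. Of 10 markers of autonomic neurons, which innervate the pancreas, 2 were called each way and the sums were 61.9 and 33.7 FPKM. Dbh, of noradrenergic cells, was at 0.855 FPKM in neural tube and 0.254 FPKM in pancreas. Schwann and glial markers summed to 8.87 FPKM in neural tube and 19.5 FPKM in pancreas, with 0 of 6 at 0 in either sample and 2 called toward pancreas. The 8 acinar markers summed to 22.8 and 27438 FPKM, with 6 called toward pancreas, Prss2 at 0 in neural tube and Pnliprp1 at 0 in pancreas. Nearly all of the neural tube sum was Ptf1a itself, at 22.5 FPKM there and 37.1 FPKM in pancreas, short of the rule. The 5 mesenchyme markers summed to 41.8 and 904 FPKM, with 3 called toward pancreas. Twist1, also among them, was called toward neural tube, at 15.8 FPKM there and 1.39 FPKM in pancreas. Of 5 markers of monoamine cells only Ddc was called, toward pancreas, and the sums were 1.64 and 61.2 FPKM. The part of these cell types in the members' differences was not tested.

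Of 29 transcription factors that act in neurons and endocrine cells, 9 were called toward neural tube, 3 toward pancreas and 17 in neither direction. Rest, the repressor of many neuronal genes in other cells, was low and alike at 4.34 FPKM in neural tube and 3.96 FPKM in pancreas. Of its corepressors, Rcor1 was also alike, at 10.7 FPKM in neural tube and 9.55 FPKM in pancreas, while Rcor2 was at 124.2 and 8.16 FPKM. Scrt1 and Scrt2, repressors that are made in neurons, were at 77.4 and 140.1 FPKM in neural tube and at 0.0101 and 0.0343 FPKM in pancreas. Neurog3, which starts the endocrine lineage, was at 0.341 FPKM in neural tube and 35.0 FPKM in pancreas, and Isl1 and Nkx2-2 were the other two toward pancreas. Insm1, a zinc finger factor of neuroendocrine cells, was at 24.6 and 6.19 FPKM, short of the rule. The proteins that bind CRE had smaller differences, with Creb1 at 12.6 FPKM in neural tube and 8.97 FPKM in pancreas, Atf1 at 10.8 and 21.4 FPKM, Atf2 at 16.4 and 14.9 FPKM and Crem at 2.40 and 5.32 FPKM, none past the rule.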

How the data were processed

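RNA sequencing values were used from 2 of the 18 samples of the series, and the 16 chromatin samples were not analysed here. The authors deposited 1 FPKM value per gene and tissue, read as pooled over 2 named libraries. CASAVA, TopHat, TopHat2 2.0.4, Cuffdiff 2.0.2 and the build mm9 are named, per the submitters' processing notes, without role or order. For the annotation and filters the sources used here give nothing. RNA came, per the labels' protocols, from a column kit for sorted cells and from Trizol for pancreas, and a TruSeq preparation is named besides the older one for pancreas only. FPKM depends on the transcript length assumed and on what abundant genes take of the total.

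Differences are log2(FPKM + 1) in neural tube minus pancreas, a scale that understates low genes. Calls are rules of size and not tests. The members and lists were chosen with earlier results of these data known. The genes named are all members, up to 6 calls per direction of each list in part, examples near no difference, and leading markers; Furin, Pam, Vgf, Resp18, Rest, Insm1, Ptprn2 and the CRE-binding factors were named after their values were seen. Gene positions are from GENCODE M1 on NCBIM37 (mm9). Protein features were not computed, since no protein table was used here. Python 3.11.15 and pandas 2.3.3 were used.

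Depth was inferred from the ladder of low values in genes with 1 transcript of at least 2000 bases. One fragment on 1 kb was worth about 0.0407 FPKM in neural tube (579 low genes) and 0.0211 FPKM in pancreas (701), a depth 1.93 times greater in pancreas. Fragment numbers are approximate, so no interval is given.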

Additional observations from a re-analysis of the deposited data

How the results depend on the processing

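Settings were changed one at a time in 11 ways: pseudocount, minimum FPKM, fold threshold and 5 rescalings. Of the 110 values of single members, 98 kept their call, 7 lost it and 5 gained it, and no called member changed direction. The changes of minimum FPKM could not alter a call, since all members reached 5 FPKM and the called ones reached 10 FPKM. Only the 5 rescalings could have turned a direction. The number of members higher in neural tube, 1 as reported, became 3 with a threshold of 2 times and 2 with equal totals, and the number higher in pancreas, 3 as reported, became 5 with a threshold of 2 times and 0 with a pseudocount of 5 FPKM, which by construction shrinks the differences of Scg2, Pcsk1 and Pcsk2. The median difference of the members, -0.69, became -0.073 with equal totals. Over all genes that reached 1 FPKM in a sample, the median moved likewise, from -0.072 to 0.48, so the members' median stayed below it. The log2 ratio of Pcsk2 to Pcsk1, neural tube minus pancreas, was 0.98 with a pseudocount of 1 FPKM, 2.11 with 0.1 and 0.079 with 5, because Pcsk1 in neural tube lies below 1 FPKM. No paired analysis was possible because each tissue had 1 value. The samples carry no replicate check. The low values of Scg2 and Pcsk1 in neural tube and of Pcsk1n in pancreas rest on roughly 48.1, 26.3 and 73.0 fragments. Those are the smallest fragment numbers among the members.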

Other observations

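Over the 2 samples, the genes nearest to a member in both log2(FPKM + 1) values were sought among 9626 genes that reached 5 FPKM in a sample, after leaving out names that look like clones, predicted genes or small RNAs and other names of unusual form. Nearest to Pcsk1n were Lrrc4b, a synaptic adhesion protein, at 60.2 FPKM in neural tube and 0.687 FPKM in pancreas, Hoxa6, a homeobox factor of the trunk, at 67.1 and 0.622 FPKM, and Kif5c, a neuronal kinesin, at 65.5 and 1.03 FPKM. Nearest to Pcsk1 were Hhex, a homeobox factor of foregut endoderm that is also expressed in delta cells, at 0.432 FPKM in neural tube and 11.4 FPKM in pancreas, Stat6, which acts in interleukin signalling, at 0.403 and 10.5 FPKM, and Plekhb1 at 0.494 and 11.2 FPKM. With 2 values per gene this likeness is only that of 2 levels.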
